A study of Rattus norvegicus with 14 samples.

Results

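The genes described here are 10 genes of the epithelial-mesenchymal transition (EMT): the simple epithelial keratins Krt7, Krt8, Krt18 and Krt19, vimentin (Vim), and the EMT transcription factors Snai1, Snai2, Twist1, Zeb1 and Zeb2. They were chosen by name. The gene count table had a row for 8 of the 10, among 16816 rows in all, and Krt7 and Snai2 were not analysed here. RNA-seq was performed on PCCL3 cells, a rat thyroid follicular cell line. PPFP cells are a stable transfectant of PCCL3 that makes the human PAX8-PPARG fusion protein (PPFP), found in a subset of follicular thyroid carcinomas. The fusion carries an N-terminal 3xMyc tag. EV cells are the matching stable transfectant of PCCL3 with the empty vector (EV) alone. Each cell line was cultured for 16 hours with 1 μM pioglitazone, an agonist of PPARG, or with vehicle. This gave 4 groups of 3 libraries, from independent experiments. One stable line of each kind was used, and whether it is a clone is not given in the sources used here, so a difference between PPFP and EV cells is a difference between these transfected lines, and the p-values measure the spread between the libraries of each line.

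Keratins are the intermediate filament proteins of epithelial cells. They assemble as obligate pairs of a type I keratin (such as Krt18 and Krt19) and a type II keratin (such as Krt7 and Krt8), and Krt8 with Krt18 is the usual pair of simple epithelia such as the thyroid follicle. Vimentin is the intermediate filament protein of mesenchymal cells, and many epithelial cells begin to make it in culture. In EMT an epithelial cell gives up keratin filaments and E-cadherin junctions and gains vimentin and migratory behavior. Snai1, Snai2, Zeb1 and Zeb2 are zinc finger proteins, and Twist1 is a basic helix-loop-helix protein; all are known to repress the E-cadherin gene through E-box sequences.

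Libraries held between 23724703 and 35240176 counted reads . The Pparg row, which takes up reads of the fusion as far as they align to the rat gene, was at 1.60 ± 0.347 CPM (counts scaled to library size; SD, n = 3) in EV cells under vehicle, and PPFP cells had 54.1 ± 6.82 CPM. All 13 thyroid markers were detected. Of these, 4 were called higher and 7 lower in PPFP versus EV cells under vehicle, where 22% and 23.1% of all genes were. None of 10 proliferation genes was called between the lines. Of 10 fibroblast genes, Dcn, Lum and Col3a1 had no count in any library, while Col1a1 had 23 to 96 counts and Pdgfra 517 to 938 counts. Immune and endothelial markers summed to at most 1.49 and 1.57 CPM. Parafollicular C cell markers summed to 6.21 to 8.55 CPM in EV and 0.149 to 0.771 CPM in PPFP libraries, nearly all of it Ret, with Calca at 0 throughout. Differential expression was tested with edgeR's quasi-likelihood test on the 6 libraries of each comparison, and a gene was called at a Benjamini-Hochberg adjusted p below 0.05. PPFP and EV cells differed in 45.2% of the genes tested without pioglitazone and in 52.7% with pioglitazone. For pioglitazone against vehicle in PPFP cells 14.8% of genes were called, in EV cells 0% (0 of 10146 genes, with 16 genes at an unadjusted p below 0.05, and 0 by DESeq2). The 4 comparisons share libraries, so their results are not independent of each other. RNA was from whole cultures, in which fewer cells with a transcript and less transcript per cell cannot be told apart.

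The 250 bases before the transcription start are shown for the 3 genes with the clearest changes below (Krt8, Vim and Zeb2), together with Snai1, from the RefSeq promoter table of the rat build GRCr8. Capitals mark CANNTG, the E-box core, which reads the same on both strands.
Krt8, chr7:135010340-135010589, minus strand: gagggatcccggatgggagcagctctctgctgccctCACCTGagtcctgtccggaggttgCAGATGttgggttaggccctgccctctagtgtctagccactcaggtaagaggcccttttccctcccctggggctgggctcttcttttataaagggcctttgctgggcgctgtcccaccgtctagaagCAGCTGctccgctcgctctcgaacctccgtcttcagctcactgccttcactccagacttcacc
Snai1, chr3:176667226-176667475, plus strand: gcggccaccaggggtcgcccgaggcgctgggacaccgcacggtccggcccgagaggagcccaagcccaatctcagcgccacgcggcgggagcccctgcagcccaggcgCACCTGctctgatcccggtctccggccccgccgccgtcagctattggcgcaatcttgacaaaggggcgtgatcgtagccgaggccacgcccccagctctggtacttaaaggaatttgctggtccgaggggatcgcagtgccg
Zeb2, chr3:49754324-49754573, minus strand: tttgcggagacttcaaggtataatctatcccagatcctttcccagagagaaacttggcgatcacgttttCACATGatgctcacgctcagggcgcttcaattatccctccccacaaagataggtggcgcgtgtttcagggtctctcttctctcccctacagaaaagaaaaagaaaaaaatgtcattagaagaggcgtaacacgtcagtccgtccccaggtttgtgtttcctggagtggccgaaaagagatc
Vim, chr17:81577011-81577260, plus strand: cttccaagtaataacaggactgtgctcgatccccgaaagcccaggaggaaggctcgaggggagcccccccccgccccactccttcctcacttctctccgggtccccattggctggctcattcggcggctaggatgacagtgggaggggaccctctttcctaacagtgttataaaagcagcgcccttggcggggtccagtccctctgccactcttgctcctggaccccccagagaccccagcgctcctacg

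The Krt8 window held 3 E-boxes, of which the one 214 bases before the start reads CACCTG, or CAGGTG on the other strand, the form preferred by Snai and Zeb proteins. The Snai1 window had CACCTG 142 bases before the start, and the Zeb2 window had only CACATG, 181 bases before it. The window of Zeb1, which was not called in any comparison, held CAGGTG 95 bases before and 37 bases after the start. The letters CANNTG did not occur in the Vim, Krt18 and Twist1 windows. Of 33469 promoters of 300 bases in the RefSeq table (250 bases before and 50 after the start), 72.1% held CANNTG and 18.8% held CAGGTG on either strand, the latter being a subset of the former. Promoter entries were matched for 7 of the 10 genes. A match describes the letters only. Binding of PPFP near these genes was not analysed here.

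Krt8, the type II keratin of simple epithelia, was present in EV cells and nearly absent from PPFP cells. Counts were 124, 84 and 111 in EV cells and 0, 4 and 0 in PPFP cells without pioglitazone. With pioglitazone they were 142, 112 and 94 in EV cells and 0, 1 and 3 in PPFP cells. All 6 EV libraries lay far above all 6 PPFP libraries. The level in EV cells was 3.57 ± 0.694 CPM without and 3.58 ± 0.284 CPM with pioglitazone (SD, n = 3). The pooled counts, scaled to library size, were 69.0 times higher in EV than in PPFP cells under vehicle (95% exact interval 26.7 to 255) and 74.9 times higher with pioglitazone (29.0 to 276), where the intervals cover counting error only. The fitted log2 fold change in PPFP versus EV cells was -5.99 (SE 0.62, adjusted p = 0.000235) without pioglitazone and -6.09 (SE 0.44, adjusted p = 4.34e-05) with pioglitazone. All 4 counts in PPFP cells under vehicle came from library 2, so the size of the fold rests on that library. With 1 library left out, the value under vehicle ranged from -9.64 to -5.39. Krt8 passed the filter on low counts only through the EV libraries. Pioglitazone left Krt8 in EV cells at the same level within error, with a log2 fold change of 0.0027 (SE 0.19, adjusted p = 1.00). In PPFP cells it was below the filter, and its response there was not tested.

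Krt18, the type I partner of Krt8, was at the limit of detection in every group. Its counts were 1, 1 and 0 in EV cells, 0 in all 3 EV libraries with pioglitazone, 0, 3 and 2 in PPFP cells, and 2 in all 3 PPFP libraries with pioglitazone. Krt19, a type I keratin that can also pair with Krt8, had counts of 1, 2 and 1 in EV cells, 0, 0 and 1 in EV cells with pioglitazone, 1, 2 and 0 in PPFP cells, and 2, 7 and 2 in PPFP cells with pioglitazone. Neither passed the filter in any comparison. RefSeq lists 6 Krt18 pseudogenes and 1 Krt8 pseudogene in the rat, and the sources used here do not state how reads matching several places were treated, so counts of both rows are uncertain to that extent. Without a filter, Krt18 was called higher in PPFP versus EV cells with pioglitazone (adjusted p = 0.0354), on 6 counts against 0 in all, and Krt19 was not (adjusted p = 0.0517). All Krt18 libraries were at or under a floor of 3 counts, so no fold is given. That floor corresponded to between 0.0813 and 0.128 CPM.

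**Figure D1:**
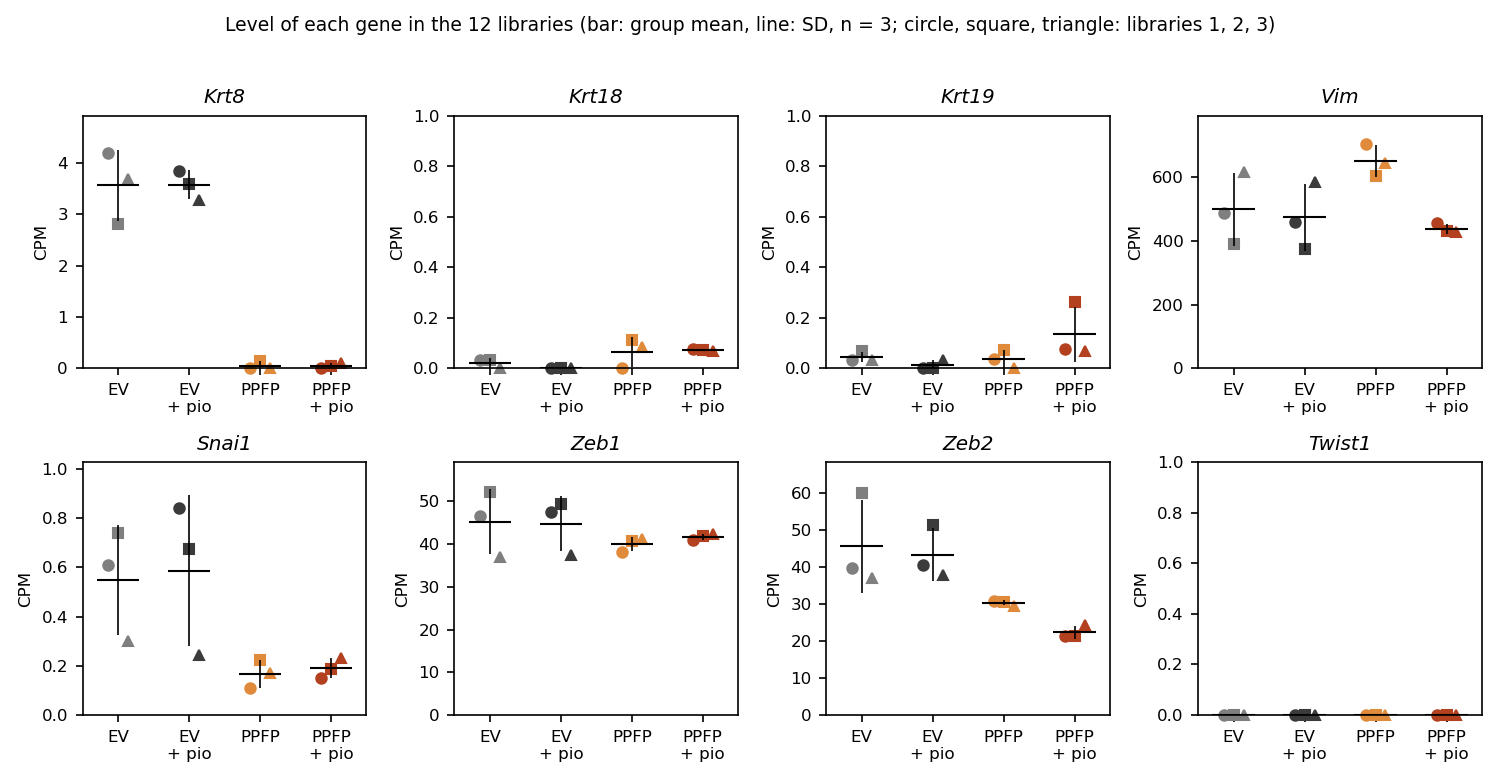
Level in CPM (y axis) of the 8 genes with a row, in 3 libraries of each of 4 groups (x axis). Symbols are libraries, bars are group means and vertical lines are SD. Krt8 was near 3.6 CPM in EV cells and near 0 in PPFP cells, Vim and Zeb2 in PPFP cells were lower with pioglitazone than without, and Krt18, Krt19 and Twist1 were at or near 0 throughout.

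The other keratins were examined next to Krt8. The table had 46 keratin rows, 28 of type I and 18 of type II; all of them were inspected after the counts of the first list were seen. Of these, 22 had at most 3 counts in every library and 14 reached 10 counts in at least 1 library. In PPFP versus EV cells under vehicle, 11 keratin rows were tested. Krt8 was the only one called lower, and 8 were called higher (Krt20, Krt23, Krt72, Krt75, Krt76, Krt81, Kb15 and Kb23), where 22% of all genes were called higher and 23.1% lower. Of these 8, 7 (all but Krt23) passed the filter only through the PPFP libraries, as Krt8 did through the EV libraries, so their direction was fixed and nothing is read from these counts. With pioglitazone 7 rows were called higher and 1 lower, of 11 tested, where 26.3% and 26.4% of all genes were called in these directions, and the same limit holds. Krt17, a type I keratin of stratified and injured epithelia, was not tested between the lines because its counts were low, but it had more counts in the EV line, as Krt8 did. Its counts were 5, 16 and 12 in EV cells and 0, 3 and 2 in PPFP cells, and with pioglitazone 11, 27 and 4 against 0, 1 and 0. The groups did not overlap under either condition, a separation seen for 56.5% of all genes tested without and 62.9% with pioglitazone. Krt10, a type I keratin of differentiated epidermis, was not called with pioglitazone (log2 fold change -0.82, SE 0.32, adjusted p = 0.0632), although the 2 lines did not overlap there.

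Krt23, a type I keratin, had counts of 13, 20 and 12 in EV cells and 75, 97 and 99 in PPFP cells. These groups did not overlap, as for 56.5% of all genes tested. Its log2 fold change was 2.80 (SE 0.29, adjusted p = 0.000235) without and 2.46 (SE 0.28, adjusted p = 0.00032) with pioglitazone. Krt20, a type I keratin of intestinal and urothelial epithelium, had counts of 1, 2 and 2 in EV cells and 34, 20 and 13 in PPFP cells. Without the replicate block it was the 1 keratin row of 10 tested that pioglitazone induced in PPFP cells, where 7.63% of all genes were called higher. Its counts there reached 64, 60 and 56 (log2 fold change 1.34, SE 0.30, adjusted p = 0.029). That call was lost without any one of 5 of the 6 libraries (adjusted p between 0.0647 and 0.116), and held with the replicate block (adjusted p = 8.52e-06). With the block, which called 51.6% of all genes in this comparison, 4 keratin rows were higher and 1 was lower. The others that were higher were Krt72 (1.34, adjusted p = 2.11e-07), Kb15 (0.89, adjusted p = 0.00527) and Krt75 (0.67, adjusted p = 0.0375). Krt72, a type II keratin of the hair follicle sheath, had 0, 0 and 1 counts in EV cells and 17, 48 and 43 in PPFP cells. Kb23 is a synonym of the hair keratin Krt83 in RefSeq, yet the table also has a row named Krt83, with at most 4 counts in any library, whose name RefSeq gives as a synonym of Krt87. The Kb23 row had 6, 9 and 19 counts in EV cells and 81, 56 and 34 in PPFP cells, and fell to 21, 13 and 15 with pioglitazone (log2 fold change -1.87, SE 0.34, adjusted p = 0.0154). Hair keratins resemble each other closely, so reads of Krt81 and Kb23 may not be fully separated. Krt80, a type II keratin that took up more reads than any other keratin row, was not called. Its counts were 372, 353 and 204 in EV cells and 230, 347 and 305 in PPFP cells, with a log2 fold change of 0.14 (SE 0.27, adjusted p = 0.69).

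Summed over all 28 type I rows, keratin transcripts were 2.83 ± 0.925 CPM in EV cells (SD, n = 3), and PPFP cells under vehicle had 5.998 ± 1.15 CPM. The 18 type II rows summed to 14.7 ± 2.95 CPM in the EV line and 18.2 ± 2.79 CPM in the PPFP line, with most of these reads on Krt80. The sum of type II rows without Krt80 came to 4.32 ± 0.775 CPM in the EV line and 6.70 ± 0.169 CPM in the PPFP line. The sums were not tested. They give each read the same weight whatever the length of the transcript.

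**Figure D2:**
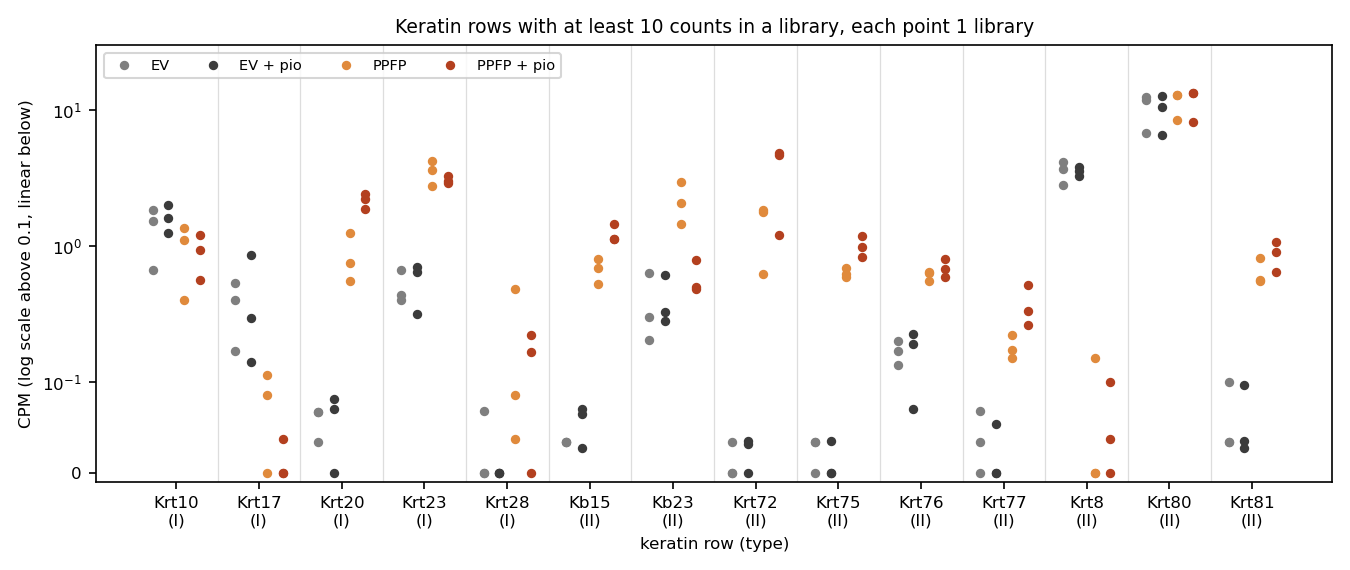
Level in CPM (y axis, logarithmic above 0.1 and linear below) of the 14 keratin rows with at least 10 counts in a library, with the type I or II in brackets; each point is 1 library and the color is the group. Krt8 was high in EV cells and near 0 in PPFP cells, Krt17 was also higher in EV cells, and Krt80 overlapped between all groups. Krt20, Krt23, Krt72, Krt75, Krt76, Krt81 and Kb15 were higher in PPFP cells. Of these, all but Krt23 passed the filter only through the PPFP libraries, so their direction was fixed.

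Vim was abundant in every library. It was at 487, 391 and 616 CPM in EV cells, 460, 375 and 585 CPM in EV cells with pioglitazone, 703, 602 and 644 CPM in PPFP cells, and 455, 429 and 427 CPM in PPFP cells with pioglitazone. The 3 PPFP libraries without pioglitazone were all above the 3 with it, a separation seen for 34.4% of all genes, whereas the EV groups overlapped with each other. Both EV groups overlapped with the PPFP group with pioglitazone, and of the 2 only the one without pioglitazone overlapped with the PPFP group without it. In PPFP cells pioglitazone repressed Vim by 1.47-fold (log2 fold change -0.56, SE 0.065, adjusted p = 0.00324; -0.56, SE 0.037, adjusted p = 6.26e-12 with the replicate block). When all 12 libraries were fitted together, the log2 fold change was -0.57 (SE 0.17, adjusted p = 0.0586). In EV cells the change was -0.075 (SE 0.22, adjusted p = 1.00), and -0.074 (SE 0.033, adjusted p = 0.809) with the replicate block. In the PPFP libraries the summed level of the 13 thyroid markers, most of it Tg, was between 14066 and 14717 CPM without pioglitazone and between 10513 and 10777 CPM with it, and that of the 10 fibroblast markers was between 20.4 and 32.4 CPM and between 26.0 and 34.5 CPM. Their part in the Vim values was not tested.

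The EV libraries differed in Vim by their number rather than by pioglitazone. The libraries numbered 3 were highest and those numbered 2 lowest in both EV groups. The summed level of 10 proliferation genes had the same order, at 2660 CPM in library 3, 1925 CPM in library 1 and 1368 CPM in library 2 of EV cells without pioglitazone; its part in the Vim values was not tested. Libraries of the same number deviated together within each cell line, and in PPFP cells those numbered 2 and 3 also did so across numbers. Between libraries of the same number the log2 change in Vim with pioglitazone was -0.083, -0.058 and -0.074 in EV cells and -0.63, -0.49 and -0.59 in PPFP cells. The difference between these responses was -0.50 (SE 0.24, adjusted p = 0.425) without the block and -0.50 (SE 0.049, adjusted p = 4.80e-06) with the replicate number blocked within each cell line. In the first fit 2.64% of all genes had a different response between the cell lines, and none of the 5 genes tested here was among them, of which Krt8 and Snai1 had at most 4 and 7 counts in a PPFP library. With the block Vim and Zeb2 were called, as were 34.3% of all genes.

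Vim in PPFP versus EV cells under vehicle gave a log2 fold change of 0.38 (SE 0.16), which was not called (adjusted p = 0.0889). With the replicate number blocked across the lines it was 0.41 (adjusted p = 0.0486), although the numbers were not taken to pair the lines. With 1 library left out, the value without a block ranged from 0.23 to 0.57 (adjusted p between 0.0089 and 0.203). The largest was without EV library 3. With pioglitazone in both lines the log2 fold change was -0.10 (SE 0.16, adjusted p = 0.618). The ratio of Vim to all keratin rows was 23.9, 20.7 and 46.1 in EV cells and 35.8, 22.8 and 24.3 in PPFP cells without pioglitazone, and these groups overlapped. With pioglitazone it was 22.5, 19.5 and 46.7 in EV cells and 21.9, 13.9 and 14.2 in PPFP cells; all 3 of the latter lay below the PPFP libraries without it. Vim is also a fibroblast transcript. The 10 fibroblast markers summed to between 22.3 and 24.3 CPM in the EV line and between 20.4 and 32.4 CPM in the PPFP line under vehicle, with 8 of the 10 at 3 counts or fewer in every library of each group; the remaining level was mainly Pdgfra, with some Col1a1.

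**Figure D3:**
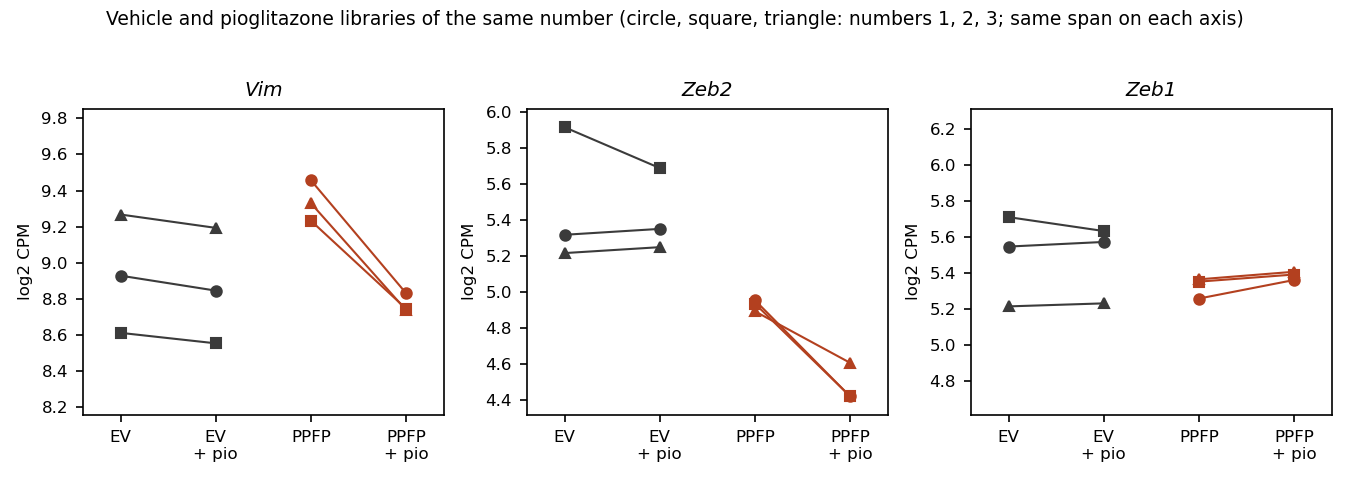
Level of Vim, Zeb2 and Zeb1 in log2 CPM (y axis, the same span in each panel) in vehicle and pioglitazone libraries; lines join libraries of the same number and cell line. The change in Vim was -0.63 to -0.49 in PPFP cells and -0.083 to -0.058 in EV cells, that in Zeb2 was -0.53 to -0.29 in PPFP cells, and that in Zeb1 was -0.077 to 0.10 over both lines.

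Other intermediate filament genes were counted from a list of 14, of which 12 had rows and 6 were tested. In PPFP versus EV cells under vehicle 1 was higher and 2 were lower (median log2 fold change -0.73, against 0.0016 over all genes tested), where 22% and 23.1% of all genes were. Nes (nestin, a filament protein of progenitor cells that assembles with vimentin) had counts of 312, 192 and 208 in EV cells and 13, 36 and 33 in PPFP cells, with a log2 fold change of -2.89 (SE 0.38, adjusted p = 0.00075). Synm (synemin, a large filament protein that links vimentin or desmin filaments to adhesion sites) had 585, 540 and 690 counts in EV cells and 223, 213 and 223 in PPFP cells (-1.24, SE 0.14, adjusted p = 0.000313). The gene that was higher was Lmna, which encodes the nuclear lamins A and C (0.81, SE 0.19, adjusted p = 0.0105). With pioglitazone Synm in PPFP cells fell further, to 127, 122 and 119 counts (-0.94, SE 0.13, adjusted p = 0.00534), and it was unlike EV cells in this response (difference -1.01, adjusted p = 0.0147).

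Of 16 genes for filament linkers and desmosomal plaque proteins, 11 had rows and 8 were tested. Without pioglitazone 2 were higher in the PPFP line and none was lower (median 0.14), where 22% and 23.1% of all genes were. Plec (plectin, which ties keratin and vimentin filaments to hemidesmosomes and actin) rose from 194 ± 16.2 to 422 ± 27.0 CPM (log2 fold change 1.12, SE 0.087, adjusted p = 9.13e-05). The other was the desmosomal plaque protein Pkp2 (0.72, adjusted p = 0.000797). In PPFP cells pioglitazone repressed Ppl (periplakin, which binds keratin and vimentin filaments at the cell border), from 861, 1415 and 1137 to 282, 401 and 527 counts (-1.61, SE 0.26, adjusted p = 0.00933). Ppl in EV cells was at 63.9 ± 9.65 CPM without and 64.4 ± 8.20 CPM with pioglitazone, and the responses of the 2 cell lines differed (-1.63, SE 0.30, adjusted p = 0.0164).

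Zeb2, a repressor of E-cadherin and polarity genes, was the only EMT transcription factor among the 10 genes that was called with the filter. It was at 39.8, 60.2 and 37.1 CPM in EV cells, 40.7, 51.4 and 37.9 CPM in EV cells with pioglitazone, 30.9, 30.5 and 29.6 CPM in PPFP cells, and 21.4, 21.4 and 24.3 CPM in PPFP cells with pioglitazone. All EV libraries lay above all PPFP libraries, and the 3 PPFP libraries with pioglitazone lay below the 3 without it. Such separation held for 62.9% of all genes between the cell lines under pioglitazone. Zeb2 was lower in PPFP than in EV cells under vehicle (log2 fold change -0.59, SE 0.18, adjusted p = 0.031) and with pioglitazone (-0.94, SE 0.13, adjusted p = 0.000777). The first of these calls was lost without any one of the PPFP libraries (adjusted p = 0.0643, 0.0732 and 0.0889 without libraries 1, 2 and 3). Over all single libraries left out, that log2 fold change ranged from -0.72 to -0.34. In PPFP cells pioglitazone repressed Zeb2 by 1.35-fold (-0.43, SE 0.077, adjusted p = 0.0139; -0.43, SE 0.061, adjusted p = 2.33e-06 with the replicate block). This call was lost without PPFP library 3 (adjusted p = 0.058), without PPFP library 2 with pioglitazone (adjusted p = 0.0642) and in the fit of all 12 libraries (adjusted p = 0.14). In EV cells the change was -0.078 (SE 0.21, adjusted p = 1.00), and -0.063 (SE 0.057, adjusted p = 0.891) with the replicate block. The difference between the responses was -0.37 (SE 0.24, adjusted p = 0.625), and -0.38 (SE 0.089, adjusted p = 0.00462) with the block within each cell line.

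Zeb1, a close relative of Zeb2 with the same kind of target sites, was at 46.6, 52.2 and 37.0 CPM in the EV line and 38.2, 40.7 and 41.1 CPM in the PPFP line, and these groups overlapped. It was not called in any of the comparisons, with log2 fold changes of -0.18 (SE 0.13, adjusted p = 0.302) and -0.086 (SE 0.11, adjusted p = 0.532) in PPFP versus EV cells under vehicle and under pioglitazone. In PPFP cells with versus without pioglitazone it was 0.072 (SE 0.060, adjusted p = 0.498). With 1 library left out, the value under vehicle ranged from -0.31 (adjusted p = 0.0401, without EV library 3) to -0.066, with an adjusted p of up to 0.691.

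Snai1, the Snail repressor, was expressed at a low level. Its counts were 18, 22 and 9 in EV cells, 31, 21 and 7 in EV cells with pioglitazone, 3, 6 and 4 in PPFP cells, and 4, 5 and 7 in PPFP cells with pioglitazone. Without pioglitazone the groups did not overlap, which held for 56.5% of all genes tested; with pioglitazone the lowest EV library (0.244 CPM) and the highest PPFP library (0.234 CPM) both had 7 counts. Scaled to library size, pooled counts were 3.26 times higher in EV cells than in PPFP cells without pioglitazone (95% exact interval 1.74 to 6.55) and 3.17 times higher with pioglitazone (1.80 to 5.91), counting error only. Snai1 did not pass the filter in these comparisons. Without a filter its log2 fold change was -1.68 (SE 0.50, adjusted p = 0.0283) and -1.63 (SE 0.51, adjusted p = 0.0317). Twist1 had no count in any of the 12 libraries, which allows up to 3 counts, or at most 0.128 CPM, in a library.

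Of the 4 genes tested between the 2 cell lines, 2 (Krt8 and Zeb2) were called lower in each comparison, where 23.1% and 26.4% of all genes were. Krt8 entered only through its counts in EV cells and could only be lower, so nothing is read from this count. Of the 3 tested in PPFP cells with versus without pioglitazone, 2 (Vim and Zeb2) were lower, where 7.13% of all genes were called lower. In EV cells none of 5 was called with pioglitazone, as for all genes.

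**Figure D4:**
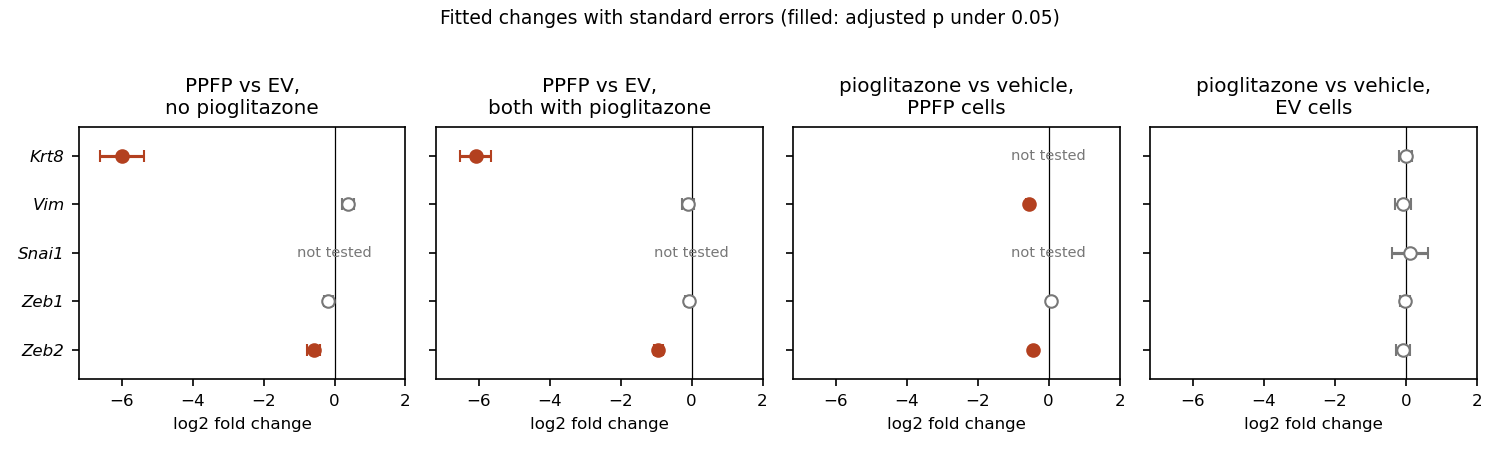
Log2 fold change (x axis) of the 5 genes that were tested in at least 1 comparison, with the standard error as bars; filled points had an adjusted p below 0.05. Krt8 lay near -6 in both comparisons of the cell lines, Zeb2 was called lower in 3 comparisons, Vim was called in PPFP cells with pioglitazone alone, and no point was called in EV cells.

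Of 19 other transcription factors linked to EMT, 16 had rows and 10 were tested. In PPFP versus EV cells under vehicle 3 were higher and 2 were lower (median -0.018), where 22% and 23.1% of all genes were. Fosl1, an AP-1 subunit, had counts of 89, 89 and 88 in EV cells and 22, 21 and 19 in PPFP cells (log2 fold change -1.88, SE 0.19, adjusted p = 0.0002). Runx2, the osteoblast factor, was also lower (-1.14, SE 0.28, adjusted p = 0.0127). Foxc1, a forkhead factor of mesenchymal development, rose from 12.2 ± 1.08 to 30.1 ± 2.57 CPM (1.31, SE 0.11, adjusted p = 0.000104). The E proteins Tcf3, Tcf4 and Tcf12, partners of Twist1, were not called (0.22, -0.20 and -0.21, adjusted p = 0.104, 0.152 and 0.14). Of the 4 Id genes, whose products bind E proteins and keep them off E-boxes, Id1 (-0.28, adjusted p = 0.0341) and Id3 (-0.98, adjusted p = 0.000121) were lower in PPFP cells. In PPFP cells pioglitazone repressed 3 of the 4 Id genes (Id1, Id3 and Id4) and, of the other EMT factors, 1 rose and 2 fell, where 7.63% of all genes rose and 7.13% fell. With the replicate block all 4 Id genes and 8 of the 10 other EMT factors tested were called, as were 51.6% of all genes.

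E-cadherin (Cdh1), the target shared by these repressors, was at 10.8 ± 2.01 CPM in the EV line and 11.8 ± 0.907 CPM in the PPFP line, a log2 fold change of 0.13 (SE 0.16, adjusted p = 0.539). N-cadherin (Cdh2), which replaces it in mesenchymal cells, was lower in PPFP cells (93.4 ± 5.53 and 69.3 ± 1.85 CPM; -0.43, SE 0.078, adjusted p = 0.00334). Of 22 epithelial identity genes, 12 were tested without pioglitazone, of which 5 were higher and 3 lower in PPFP cells (median 0.20), where 22% and 23.1% of all genes were. Among the epithelial transcription factors, Grhl2, Ehf and Elf3 were higher and Grhl3 was lower. Grhl2 (Grainyhead-like 2, which activates E-cadherin) rose from 7.40 ± 0.964 to 18.5 ± 2.42 CPM (1.33, SE 0.15, adjusted p = 0.000403). Ehf and Elf3, both ETS factors of epithelia, rose by 2.79 (SE 0.21, adjusted p = 5.42e-05) and 1.61 (SE 0.24, adjusted p = 0.00128) on the log2 scale. Grhl3, a factor of the skin barrier, was lower by a log2 fold change of -2.99 (SE 0.34, adjusted p = 0.000351).

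Of 26 mesenchymal genes listed, 23 had rows and 16 were tested without pioglitazone, of which 6 were higher and 5 lower in PPFP cells (median -0.14), where 22% and 23.1% of all genes were. At least 4 of these 11 (S100a4, Vcan, Cnn1 and Spp1) passed the filter only with the libraries of the line where they were higher, so nothing is read from these counts or the median. Among the higher ones, S100a4, a calcium-binding protein of motile cells, had counts of 21, 8 and 32 in EV cells and 2380, 2443 and 2532 in PPFP cells. Vcan (versican, a matrix proteoglycan) had 0, 0 and 1 counts in EV cells and 42, 46 and 46 in PPFP cells. Fn1 (fibronectin) was at 236 ± 16.2 CPM in the EV line and 2457 ± 276 CPM in the PPFP line (3.38, SE 0.12, adjusted p = 3.49e-06). Other listed genes with reads in both lines went the other way. Under vehicle Col5a1 was at 90.2 ± 12.7 CPM in the EV line and 5.75 ± 2.17 CPM in the PPFP line, and Ctgf at 609 ± 107 and 96.1 ± 16.0 CPM. Among the lower ones, Cnn1 (calponin, of smooth muscle) had 1380, 1098 and 889 counts in EV cells and 1, 0 and 5 in PPFP cells, and Spp1 (osteopontin) had 282, 219 and 224 against 7, 5 and 5. S100a4 fell with pioglitazone in PPFP cells, from those counts to 1341, 1696 and 1915 (-0.68, SE 0.13, adjusted p = 0.0171). Fn1, Col5a1, Ctgf, Pkp2, Lmna, Cdh1, Cdh2, the Id genes and the E proteins were chosen for mention after their values were seen.

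**Figure D5:**
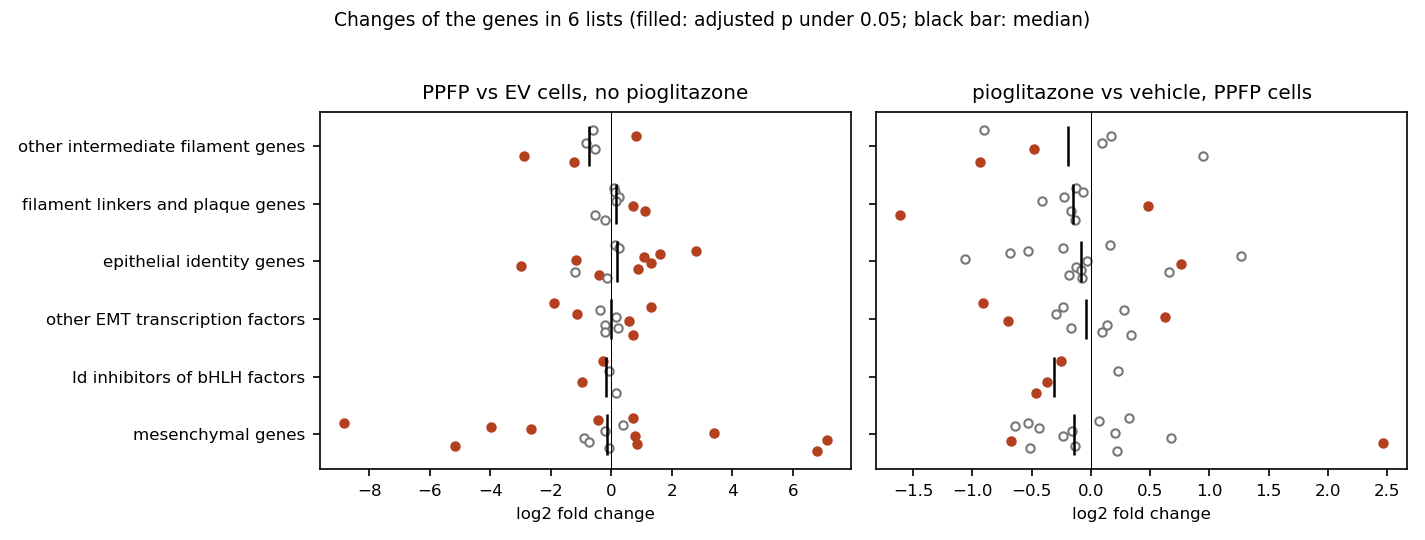
Log2 fold change (x axis) of the tested genes of 6 lists (y axis); filled points had an adjusted p below 0.05 and the black bar is the median of the list. Without pioglitazone the epithelial and the mesenchymal genes both spread to either side of 0, and the medians lay between -0.73 and 0.20.

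Genes whose levels over the 12 libraries were most like those of Krt8 and Vim were listed by Pearson correlation of log2 CPM, among the 9637 genes that averaged 1 CPM or more. For Krt8 these were Rgs10, Orai3 and Cpeb1 (each r = 0.99). As many as 491 genes had an r above 0.95 with Krt8, all of which share its contrast between the 2 cell lines. For Vim they were Isg15 (r = 0.96), Cybrd1 (r = 0.96) and Dnase2 (r = 0.95), and only 4 genes had an r above 0.95. Isg15, a ubiquitin-like protein induced by interferon, had group means of 13.7 and 12.6 CPM in EV cells without and with pioglitazone, and of 24.8 and 12.4 CPM in PPFP cells. These correlations describe 12 libraries in 4 groups and were not tested.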

How the data were processed

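RNA-seq gene counts from 12 libraries of PCCL3 cells were analysed. The authors aligned 50 nt paired-end reads to rn4 with TopHat2 2.0.11 and counted reads per gene with HTSeq 0.6.1p1 in intersection-strict mode; the deposited values are unnormalized whole-number counts per gene symbol. The annotation, strand setting and handling of multi-mapped reads are not given in the sources used here. ChIP peaks in rn4 coordinates were not used here.

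Genes were tested with edgeR 4.0.16 under R 4.3.3 (filterByExpr, TMM scaling, quasi-likelihood test, Benjamini-Hochberg adjustment over all genes tested) on the 6 libraries of each comparison, and on all 12 for the difference in response. Standard errors are the size of the log2 fold change over the root of its F value. CPM used TMM factors over 12 libraries. Levels are not per transcript length and are not compared between genes. Tables were made with pandas 2.3.3, numpy 2.4.6 and scipy 1.17.1 and plots with matplotlib 3.10.9 (Python 3.11.15). The count tests were tested on simulated data. Alternatives were DESeq2 1.42.0, edgeR's exact test, RLE and library size scaling, other filters, all libraries together, the replicate block and each library left out.

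The genes and lists were chosen with earlier results of these data known. Besides the members, up to 4 genes per list were named, those with the largest change among genes called with a fold change above 2 and a mean of at least 1 CPM in a group; thyroid, proliferation and other cell type markers are given as counts or sums. One gene selected by this rule is left out of the text.

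Libraries of the same number were compared by their deviations from the group means. Between vehicle and pioglitazone the correlations were 0.643, 0.825 and 0.871 in EV cells and 0.839, 0.612 and 0.567 in PPFP cells, so the numbers were taken to pair libraries within a cell line. In PPFP cells numbers 2 and 3 were not clearly told apart. Vehicle library 2 had r = 0.684 with pioglitazone library 3, and vehicle library 3 had r = 0.486 with pioglitazone library 2. Results with the block in PPFP cells depend on this choice of pairs. Between the cell lines they were -0.276, 0.407 and -0.396 without pioglitazone, and the numbers were not taken to pair them. The authors sequenced the samples of each experiment on shared lanes. Whether the numbers stand for the experiments is not given in the sources used here.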

Additional observations from a re-analysis of the deposited data

Results flagged for a closer look

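Some genes responded to pioglitazone differently in the 2 cell lines. With the replicate number blocked within each cell line, the difference in log2 response (PPFP minus EV) was -0.50 for Vim and -0.38 for Zeb2; it was not called for either gene without the block, and the block called 34.3% of all genes. Without the block it was -1.63 for Ppl and -1.01 for Synm, each at an adjusted p below 0.05 by edgeR's quasi-likelihood test. The difference for Ppl was no longer called without EV library 1 with pioglitazone, PPFP library 2 or PPFP library 3 (adjusted p = 0.0512, 0.0522 and 0.056), and that for Synm without PPFP library 3 (adjusted p = 0.0515).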

How the results depend on the processing

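Of 958 alternatives run for 67 results on single genes, 906 kept the direction and the side of the threshold. Most of these results are for genes named for large changes in the same fits, some with a direction fixed by the filter. The alternatives also refit the same libraries, so this agreement was largely fixed in advance and is not a measure of how firm the calls are. Of the genes described here, 2 were called in PPFP versus EV cells under vehicle, where 45.2% of all genes were. With at least 10 counts in every library 1 was called. That filter removes Krt8, with 0, 4 and 0 counts in PPFP cells, so its call could not be kept there. Between 1 and 5 were called when a library was left out (5 without EV library 3, 1 without PPFP library 1 or 3). Krt8 could only be lower, so nothing is read from these counts. With pioglitazone, where 52.7% of all genes were called, the 2 calls became 4 with no filter, among them Krt18 on 6 counts against 0. They became 1 with at least 10 counts in every library, which again removes Krt8, and 2 to 3 with a library left out. In PPFP cells with versus without pioglitazone the 2 calls became 0 with all 12 libraries and 1 to 2 with a library left out. For the difference in response the count went from 0 to 2 with the replicate block within each cell line. Numbers shared between the cell lines did not pair the libraries; blocking them nonetheless brought Vim in PPFP versus EV cells under vehicle to 0.41 (adjusted p = 0.0486) and ended no call of Krt8 or Zeb2.

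Changes near 0 turned sign. Krt8 in EV cells went from 0.0027 to -0.00103 with RLE size factors and to -0.000238 with DESeq2. With a library left out, log2 changes in EV cells ranged from -0.15 to 0.13 for Krt8, -0.27 to 0.13 for Vim, -0.24 to 0.46 for Snai1, -0.13 to 0.0899 for Zeb1 and -0.21 to 0.16 for Zeb2. The difference in response ranged from -0.28 to 0.42 for Snai1 and from -0.038 to 0.20 for Zeb1, and Vim in PPFP versus EV cells with pioglitazone from -0.25 to 0.064.

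Over all genes, calls with a fold change above 2 in PPFP versus EV cells under vehicle went from 1496 to 983 with at least 10 counts in every library. In PPFP cells with versus without pioglitazone 1486 calls became 5198 with the replicate block and as few as 632 with a library left out. For the difference in response 277 became 3594 with the block, 601 with DESeq2 and as few as 124 with a library left out. In EV cells the block gave 1 call in place of 0. The causes of these changes were not tested. Depth limits Krt18, Krt19, Twist1 and, in PPFP cells, Krt8 and Snai1.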
